A study of Mus musculus with 3 samples.

Results

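The Hox genes encode the homeodomain transcription factors that give cells their position along the head-to-tail axis. All 39 protein-coding members were taken by symbol from the 32285 genes counted (Hoxa, Hoxb, Hoxc or Hoxd followed by a number, antisense genes left out), so no measured value entered their choice. Transcripts were counted in single cells of aortas from male APOE2, APOE3 and APOE4 mice, in which the mouse Apoe gene is replaced by the human allele of that name on a C57BL/6J background. All mice received a Western diet with 42% fat and 0.2% cholesterol for 16 weeks, starting at 12 weeks of age, and neither mice with their own Apoe nor mice on another diet were analysed here. The aorta was taken from the arch to the iliac bifurcation, and cells were pooled into 1 library for each genotype (6 mice for APOE2, 5 for APOE3, 7 for APOE4), so that neither the mouse nor the place along the vessel a cell came from is recorded. A difference between genotypes therefore has no replicate and was not tested, whereas a difference between cell classes is present in each of the 3 libraries and was tested over them.

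In the 4 mammalian Hox clusters the genes stand in the order in which they are switched on in the embryo, from the front to the back of the body. Genes at the same place in different clusters form a paralog group and carry the same number, and low numbers have the more anterior limits. Many adult cells, smooth muscle cells and fibroblasts among them, keep part of the Hox pattern of the region they came from. The smooth muscle of the aortic arch comes largely from the cardiac neural crest and that of the descending aorta from the somites of the paraxial mesoderm.

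The Hoxa cluster (11 genes) lay on chr6:52155590-52260880 on the minus strand, the Hoxb cluster (10 genes) on chr11:96194316-96368256, the Hoxc cluster (9 genes) on chr15:102921103-103036852 and the Hoxd cluster (9 genes) on chr2:74668310-74765142, the last 3 on the plus strand (mm10, gene models of GENCODE). What the members share is the homeobox of 60 codons, which was found in a coding exon of all 39. The window below covers codons 42 to 58, within the helix that lies in the major groove of DNA, and capitals mark the run from codon 48 on by which each homeobox was located. It is shown for Hoxb2, the most abundant member in smooth muscle of the APOE2 and APOE3 libraries, for Hoxa5 and Hoxb7, which differed by unlike amounts in the Hand2 split, and for Hoxc8, which separated the cell classes most.
Hoxb2, chr11:96353108-96353158: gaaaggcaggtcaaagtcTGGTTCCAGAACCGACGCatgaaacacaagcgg
Hoxa5, chr6:52202638-52202688: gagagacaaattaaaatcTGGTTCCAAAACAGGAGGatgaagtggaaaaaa
Hoxb7, chr11:96289508-96289558: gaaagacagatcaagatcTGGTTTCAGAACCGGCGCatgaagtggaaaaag
Hoxc8, chr15:102992694-102992744: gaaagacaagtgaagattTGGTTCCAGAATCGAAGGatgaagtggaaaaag
Over the whole homeobox of 180 bases, 42 pairs of the same paralog group differed at 11 to 59 bases (median 35) and the 699 other pairs at 20 to 97 bases (median 71). A read of 75 bases, taken as an example length, could be drawn from more than 1 member's annotated transcripts in 2 of the 741 pairs only, Hoxd3 with Hoxd4 (314 shared runs) and Hoxc5 with Hoxc10 (94), because their annotated exons overlap. Counts of those 4 genes are uncertain to that extent. Introns were not compared. On the same strand, the annotated span of Hoxa3 encloses Hoxa4, Hoxa5 and Hoxa6. That of Hoxc5 encloses Hoxc6, Hoxc8 and Hoxc9, and that of Hoxd3 encloses Hoxd4. Whether reads in introns were counted is not given, so counts of these genes may be uncertain as well. Genes on the opposite strand overlapped 52.9% of the exon bases of Hoxb3, 27.3% of Hoxb2, 20.6% of Hoxa3 and 20.4% of Hoxa7. Whether counting used the strand is not given in the sources used here.

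After leaving out cells with under 200 genes or at least 20% mitochondrial UMIs (unique molecular identifiers, each standing for 1 captured transcript), 11772 APOE2, 6737 APOE3 and 8248 APOE4 cells remained, with medians of 12047, 17618 and 13522 UMIs per cell. Levels are given as CPM, counts per 1000000 UMIs, over all cells of a class in a library and were not divided by gene length. Whether gene length affects the order of members was not tested. A lower level in a class can mean fewer cells with the transcript or fewer transcripts in each cell, and these cannot be told apart in a sum. Smooth muscle cells (Acta2 and Tagln at 2% of UMIs or more) numbered 7825, 5290 and 5960 in the APOE2, APOE3 and APOE4 libraries, and fibroblasts (Dcn at 0.5% or more) 1432, 728 and 1059. The summed level of 10 smooth muscle markers was 51284 to 57044 CPM in the former and 1398 to 2770 CPM in the latter, and that of 10 fibroblast markers 2298 to 2811 against 28446 to 40711 CPM. These sums include Acta2, Tagln and Dcn, which define the classes, so part of the gap follows from the rule and is no separate check. Between 14 and 27 barcodes were shared by any pair of libraries.

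Hox transcripts made up 33664, 30222 and 31453 UMIs of the 3 libraries, and paralog groups 1 to 9 supplied nearly all of them. Of the 39 genes, 23 reached 100 UMIs over the libraries together, 9 lay between 1 and 64 UMIs (Hoxa10, Hoxa13, Hoxb1, Hoxc10, Hoxc13, Hoxd8, Hoxd9, Hoxd10 and Hoxd11), and 7 had none (Hoxa11, Hoxb13, Hoxc11, Hoxc12, Hoxd1, Hoxd12 and Hoxd13). Paralog groups 10 to 13 together gave 3, 9 and 8 UMIs in smooth muscle, which is 0.0239, 0.0818 and 0.0769 CPM, whereas groups 1 to 4 gave 121, 132 and 122 CPM and groups 5 to 9 gave 79.8, 105 and 135 CPM. The highest gene of each group over the libraries was Hoxa10 with 21 UMIs in group 10, Hoxd11 with 1 in group 11 and Hoxa13 with 5 in group 13, and no gene of group 12 had any. The genes of groups 11 to 13 are best known from the limbs, the tail and the urogenital tract. In smooth muscle 3 UMIs correspond to 0.0239, 0.0273 and 0.0288 CPM in the APOE2, APOE3 and APOE4 libraries, which is the level that a count of 0 allows, and in fibroblasts the limit was higher because fewer cells were sampled.

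Smooth muscle carried mainly Hoxa and Hoxb transcripts. The Hoxa cluster summed to 90.6, 100.3 and 121 CPM in the APOE2, APOE3 and APOE4 libraries and the Hoxb cluster to 105, 133 and 132 CPM, against 2.77 to 3.75 CPM for Hoxc and 1.02 to 1.89 CPM for Hoxd. Hoxb2, a gene best known from the patterning of the hindbrain, stood at 37.6, 44.1 and 39.5 CPM and was the most abundant member in the APOE2 and APOE3 libraries. Hoxa3, which is needed for the thymus, the parathyroid glands and the third pharyngeal arch, stood at 29.7, 31.9 and 30.5 CPM. Both were nearly level across the libraries. Hoxa7, a trunk gene, stood at 27.2, 33.2 and 43.2 CPM and was the most abundant member in the APOE4 library. Hoxb4 stood at 19.2, 21.4 and 18.8 CPM, and Hoxa5, which takes part in the shaping of the neck and upper thorax and of the lung, at 16.3, 18.01 and 30.2 CPM. Hoxa7 and Hoxa5 were thus both highest in the APOE4 library. Of the remaining paralog groups the highest members included Hoxb6 (7.82, 14.1 and 14.9 CPM), Hoxb8 (5.25, 8.22 and 8.30 CPM) and Hoxb9 (0.565, 0.863 and 1.51 CPM). Hoxb3 (15.2, 17.0 and 16.4 CPM) stood above Hoxb7 (11.4, 15.6 and 18.6 CPM) in the APOE2 and APOE3 libraries and below it in APOE4. These last 2 were added to the named members after their values were seen, as were the Hoxc and Hoxd genes below.

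Fibroblasts carried the same main Hoxa and Hoxb genes, and Hoxc genes at higher levels than smooth muscle. Levels of single Hoxa and Hoxb genes differed from smooth muscle in both directions, as given below. Hoxa7 stood at 30.3, 48.9 and 41.5 CPM in the APOE2, APOE3 and APOE4 libraries, Hoxa3 at 29.1, 41.7 and 32.3 CPM, Hoxb4 at 29.8, 39.4 and 29.3 CPM, Hoxb2 at 26.4, 38.0 and 31.9 CPM and Hoxa5 at 24.5, 32.1 and 30.3 CPM. These 5 were the members at 20 CPM or more in every library, and all were highest in the APOE3 library. The order among them was not the same in the 3 libraries. The Hoxc cluster summed to 23.9, 38.2 and 31.3 CPM.

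**Figure D1:**
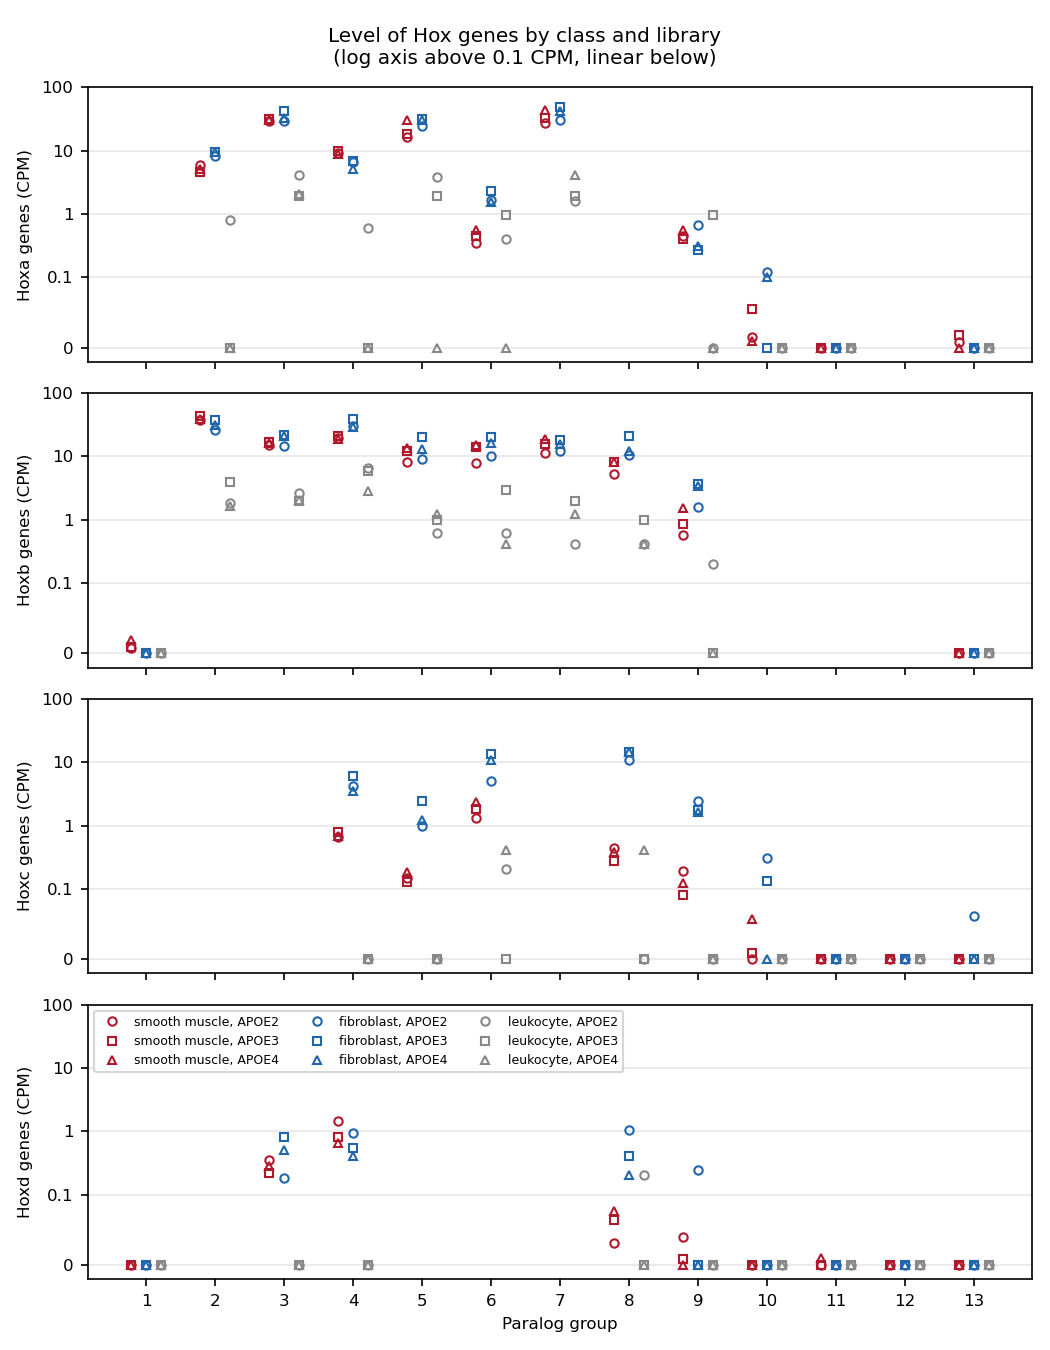
Level of the Hox genes in CPM (vertical axis, log scale above 0.1 and linear below), by paralog group (horizontal axis) and cluster (panels), in smooth muscle, fibroblasts and leukocytes of the 3 genotype libraries (symbols). The Hoxb genes of groups 2 to 8 stand between 5.25 and 44.1 CPM in smooth muscle, Hoxc genes stand higher in fibroblasts, and groups 10 to 13 lie near 0.

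Leukocytes served as the class that should lack most of these transcripts, apart from the Hoxa and Hoxb genes known from blood progenitors. All members summed to 25.1, 26.4 and 16.9 CPM in leukocytes (542, 130 and 377 cells) of the APOE2, APOE3 and APOE4 libraries, against 201, 238 and 257 CPM in smooth muscle and 242, 365 and 297 CPM in fibroblasts. The smooth muscle sum was thus 8.01, 9.02 and 15.2 times that of leukocytes. With every cell thinned to 3000 UMIs, a Hox UMI was found in 42.2% of APOE2 smooth muscle cells (exact 95% interval 41.0 to 43.3), 47.8% of APOE3 cells (46.5 to 49.2) and 50.7% of APOE4 cells (49.4 to 52.0). In leukocytes the shares were 4.51%, 2.88% and 4.14%, and in fibroblasts 46.3%, 59.7% and 54.1%. Without thinning, smooth muscle cells with a Hox UMI made up 79.2%, 89.9% and 89.4%, at medians of 13649, 19429 and 15326 UMIs per cell, and leukocytes 11.6%, 10.8% and 7.16% at 6961, 7527 and 4777 UMIs. Thinning left out 648, 174 and 176 smooth muscle cells and 76, 26 and 63 leukocytes that were shallower. These intervals, and all those below for counts and ratios, cover counting error only.

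Endothelial cells (at least 2 UMIs of endothelial markers, 320, 82 and 124 cells) held 234, 173 and 206 CPM of Hox transcripts. Hoxd8, a trunk gene of the Hoxd cluster, stood there at 2.05, 1.85 and 1.04 CPM (11, 3 and 2 UMIs) against 0.0318, 0.0636 and 0.0769 CPM in smooth muscle. Hoxd4 stood at 3.73, 2.47 and 4.16 CPM in endothelial cells (20, 4 and 8 UMIs) against 1.47, 0.800 and 0.644 CPM in smooth muscle. The same cells held 11246 to 14352 CPM of smooth muscle markers (51284 to 57044 CPM in smooth muscle itself) and 4395 to 5012 CPM of fibroblast markers, and the part of these transcripts in their Hox sum was not tested.

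Fibroblasts differed from smooth muscle above all in the Hoxc cluster. The 2 classes were compared over the 3 libraries with edgeR's quasi-likelihood test on summed UMIs, with the library as a block and Benjamini-Hochberg adjustment over all 16842 genes tested, called at an adjusted p under 0.05. Of 39 members 24 passed the filter on low counts, 11 of them were higher in fibroblasts and 4 lower, where 26.8% of all genes were called higher and 31.8% lower. The median log2 difference was 0.21 over the 24 members and -0.04 over all genes. All 5 Hoxc genes tested were higher in fibroblasts, while groups 1 to 4 gave 3 higher and 4 lower of 10. Groups 5 to 9 gave 8 higher and 0 lower of 14 by edgeR, by DESeq2 and by limma-voom. Of all genes 26.6% were higher and 28.1% lower by DESeq2, and 28.8% and 31.3% by limma-voom. At an unadjusted p under 0.05, where all genes were not counted, 1 was lower (Hoxb7, by edgeR and limma-voom).

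Hoxc8, which is known for the identity of thoracic segments, showed the largest difference among members. It stood at 10.8, 14.5 and 14.2 CPM in fibroblasts and at 0.437, 0.273 and 0.384 CPM in smooth muscle of the APOE2, APOE3 and APOE4 libraries, 24.7, 53.1 and 37.1 times as high, with no overlap between the classes. The log2 difference was 4.80 ± 0.25 (SE, 3 libraries, adjusted p = 9.8e-05 by edgeR's quasi-likelihood test with Benjamini-Hochberg adjustment). Its neighbours followed with 3.50 ± 0.35 for Hoxc9, 2.87 ± 0.46 for Hoxc5, 2.30 ± 0.23 for Hoxc4 and 1.99 ± 0.21 for Hoxc6. Hoxc6 was the most abundant of these in smooth muscle, at 1.33, 1.82 and 2.32 CPM against 5.12, 13.4 and 10.7 CPM in fibroblasts. Smooth muscle also held 2298 to 2811 CPM of fibroblast markers, against 28446 to 40711 CPM in fibroblasts. The part of RNA carried over from fibroblasts in the low Hoxc counts of smooth muscle was not tested. These 5 Hoxc genes kept their call in every alternative run.

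Members outside the Hoxc cluster differed in both directions. Hoxd8 was higher in fibroblasts by 2.92 ± 0.81 on the log2 scale, from 17, 3 and 2 UMIs there, and Hoxa6 by 1.67 ± 0.33. Hoxb9 followed with 1.22 ± 0.27, Hoxb8 with 0.62 ± 0.16, Hoxa2 with 0.44 ± 0.15 and Hoxb4 with 0.37 ± 0.08. Genes that were lower in fibroblasts were found in groups 1 to 4, among them Hoxd4, Hoxa4 and Hoxb2, with -0.98 ± 0.31 for Hoxd4, -0.94 ± 0.13 for Hoxa4 and -0.70 ± 0.08 for Hoxb2. For Hoxa3, Hoxa5, Hoxa7, Hoxa9, Hoxb3, Hoxb5, Hoxb6, Hoxb7 and Hoxd3 the difference did not pass, with log2 values from -0.44 to 0.29, and Hoxa3, Hoxa7, Hoxb3, Hoxb5, Hoxb6 and Hoxb7 among them changed sign when total UMIs set the scale. Only Hoxa4 and Hoxb2 of the genes outside Hoxc kept their call in every alternative run. Without the APOE3 library 5 of 24 members were higher, near the 19.2% of all genes, and the members' median was -0.07. Hoxa2, Hoxa6, Hoxb4, Hoxb8, Hoxb9 and Hoxd8 lost their call there. Without the APOE4 library 2 of 24 were lower, where 22.3% of all genes were. Hoxd4 was among those that lost theirs, and Hoxa2 lost its call as higher. Without the APOE2 library Hoxd8 was not called, and Hoxd4 lost its call without any single library. Scaling by total UMIs in place of TMM moved the median of all genes from -0.04 to 0.31. The share of calls that were higher in fibroblasts moved from 45.7% to 68.2%. Then 11 of 24 members were higher and 3 lower, where 41.1% of all genes were higher and 19.2% lower.

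**Figure D2:**
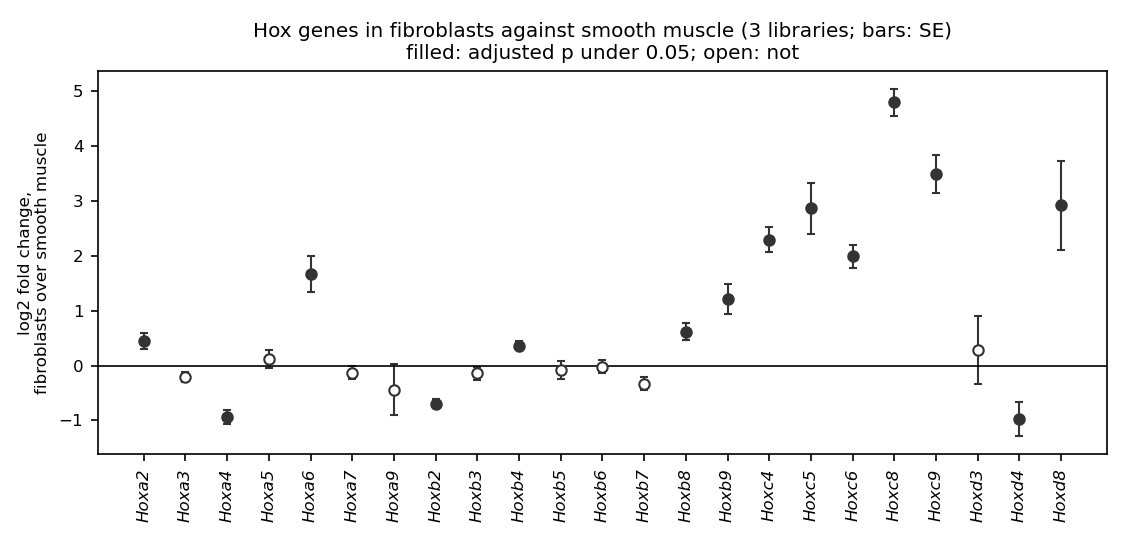
Log2 difference of tested Hox genes between fibroblasts and smooth muscle (vertical axis, above 0 is higher in fibroblasts). Bars are the SE from edgeR's test on 3 libraries. The 5 Hoxc genes stand between 1.99 and 4.80, and open points did not pass the adjusted threshold.

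No label gives a cell's place along the aorta, so smooth muscle was split by Hand2, a transcription factor of neural crest and heart development that the study lists among genes of the arch. Hand2 is no Hox gene, and cells with at least 1 Hand2 UMI were compared with cells without one. In Hand2-positive cells the members of groups 5 to 9 summed to 32.3, 35.8 and 40.4 CPM in the APOE2, APOE3 and APOE4 libraries, and in Hand2-negative cells to 144, 148 and 167 CPM, 4.47, 4.12 and 4.13 times as much. Groups 1 to 4 stood at 107, 108 and 105 CPM in Hand2-positive and 140, 148 and 129 CPM in Hand2-negative cells, 1.31, 1.37 and 1.23 times as much. For both sums the 2 kinds of cells did not overlap, and the gap was wider in groups 5 to 9 in every library.

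In the same test over 15893 genes, 23 members were tested, of which 2 were higher in Hand2-positive cells and 16 lower, where 6.83% of all genes were called higher and 4.63% lower. The median log2 difference was -1.51 over the members and -0.00192 over all genes. Of the genes of groups 5 to 9, 12 of 13 were lower, and of those of groups 1 to 4, 4 of 10. All 8 Hoxb genes tested were lower. With total UMIs as the scale the share of all calls that were higher was 44.5% in place of 59.6%. The members' counts were the same, where 5.51% of all genes were then higher and 6.88% lower.

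Hoxa7 stood at 8.99, 9.20 and 8.42 CPM in Hand2-positive cells and at 52.0, 47.9 and 55.0 CPM in Hand2-negative cells of the APOE2, APOE3 and APOE4 libraries. Hand2-negative cells were thus 5.78, 5.20 and 6.53 times as high, with no overlap. The log2 difference was -2.49 ± 0.06 (SE, adjusted p = 7.28e-08 by edgeR's quasi-likelihood test). Hoxb7, a trunk gene as well, stood at 3.599, 3.72 and 3.34 CPM against 22.1, 22.8 and 23.8 CPM, a log2 difference of -2.63 ± 0.07. Hoxb8 stood at 1.42, 2.09 and 1.52 CPM against 10.5, 12.0 and 10.6 CPM (-2.69 ± 0.10). In each of these 3 genes the 2 kinds of cells did not overlap, and whether the genes differ from each other was not tested. Of the others of groups 5 to 9, Hoxb9 gave -2.62 ± 0.26, Hoxc6 -2.55 ± 0.19, Hoxb5 -2.49 ± 0.09 and Hoxa6 -2.48 ± 0.34. Hoxb6 gave -2.33 ± 0.09, Hoxc5 -2.18 ± 0.50, Hoxa9 -1.81 ± 0.47 and Hoxc8 -1.51 ± 0.32. Hoxc9 did not pass (-1.21 ± 0.72), and Hoxa5 is given below.

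Hoxa5 differed less than Hoxb5 (-2.49) and Hoxc5 (-2.18), the other tested members of paralog group 5. It stood at 12.0, 11.9 and 18.6 CPM in Hand2-positive and 22.2, 21.7 and 34.1 CPM in Hand2-negative cells, a log2 difference of -0.84 ± 0.05. Of groups 1 to 4, Hoxc4 differed by -2.43 ± 0.26, as much as the trunk genes, and Hoxb4, Hoxb2 and Hoxb3 by -0.72 ± 0.05, -0.59 ± 0.04 and -0.46 ± 0.06. Among the anterior Hoxa genes Hoxa2, Hoxa3 and Hoxa4 did not pass, with log2 differences of 0.14 ± 0.08 for Hoxa2, -0.02 ± 0.04 for Hoxa3 and -0.04 ± 0.08 for Hoxa4. Hoxa3 stood at 28.8, 30.6 and 30.8 CPM against 30.8, 32.7 and 30.4 CPM, and its 2 kinds of cells overlapped.

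Hoxd3 and Hoxd4 ran the other way. Hoxd4 stood at 2.00, 1.51 and 1.90 CPM in Hand2-positive and 0.751, 0.366 and 0.219 CPM in Hand2-negative smooth muscle, with no overlap and a log2 difference of 2.10 ± 0.29. Hoxd3 stood at 0.427, 0.479 and 0.721 against 0.244, 0.0585 and 0.142 CPM, a difference of 1.91 ± 0.43. Both are low, and their annotated exons share bases, so a read can belong to either. With Hand2 called after thinning to 3000 UMIs both calls were lost. Then 0 of 22 members were higher and 14 lower, where 2.19% and 1.89% of all genes were. Hoxd3 was also not called without the APOE3 library.

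Hand2-positive smooth muscle cells were the deeper ones, at medians of 16232, 22364 and 18176 UMIs against 11750, 18281 and 14674. Among the 16 lower members 13 kept their call in every alternative run, with thinning before the call of Hand2 among them, and the rest were Hoxa9, Hoxc5 and Hoxc8. The study's arch list without its macrophage genes, Mmp12 and Spp1, was also read. Of its other genes Flrt3, Lbp, Pde1c and Prss12 were higher in Hand2-positive cells, by 2.19, 1.98, 1.94 and 0.54, and Gng2 did not pass (0.43 ± 0.23). Its descending-aorta genes outside the Hox clusters, Sema3a, a guidance cue, and Tnc, a matrix protein, were both lower, by -2.76 ± 0.06 and -1.18 ± 0.07. The study's own list of descending-aorta genes also holds Hoxa6, Hoxa7, Hoxb7, Hoxb8, Hoxb9 and Hoxc6, all of which were lower here.

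**Figure D3:**
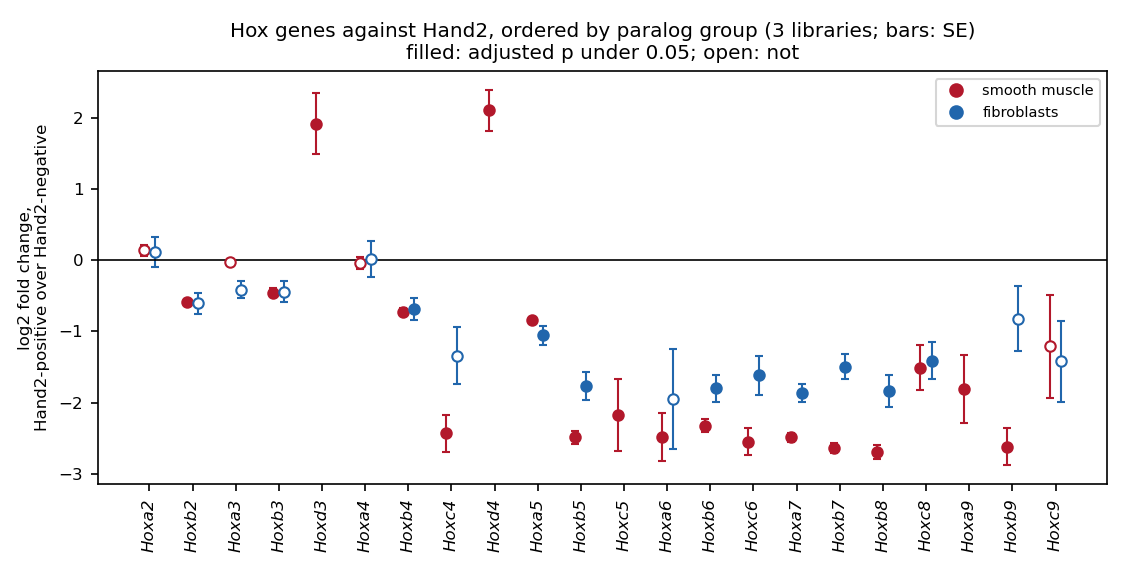
Log2 difference of tested Hox genes between cells with and without a Hand2 UMI (vertical axis, above 0 is higher in Hand2-positive cells). Genes are ordered by paralog group, for smooth muscle and for fibroblasts. Bars are the SE from edgeR's test on 3 libraries. In smooth muscle Hoxa2, Hoxa3 and Hoxa4 lie near 0, Hoxd3 and Hoxd4 near 2, and most genes of groups 5 to 9 between -2.69 and -1.51.

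Upstream windows are printed for Hoxd4, which was higher in Hand2-positive smooth muscle, and for Hoxa7 and Hoxb8, which were lower. Each holds the 250 bases before the RefSeq start (GRCm38.p6, the assembly of mm10). Capitals mark a half-site of the retinoic acid receptors (AGGTCA) or the letters bound by Cdx factors (TTTATG), on either strand. Retinoic acid and the Cdx factors are known inputs of the clusters in the embryo.
Hoxd4, plus strand, chr2:74721728-74721977: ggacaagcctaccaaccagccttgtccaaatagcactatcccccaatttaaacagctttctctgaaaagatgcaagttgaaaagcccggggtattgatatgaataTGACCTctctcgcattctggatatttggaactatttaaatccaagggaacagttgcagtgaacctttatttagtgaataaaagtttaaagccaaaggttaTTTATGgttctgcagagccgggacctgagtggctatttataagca
Hoxa7, minus strand, chr6:52218574-52218823: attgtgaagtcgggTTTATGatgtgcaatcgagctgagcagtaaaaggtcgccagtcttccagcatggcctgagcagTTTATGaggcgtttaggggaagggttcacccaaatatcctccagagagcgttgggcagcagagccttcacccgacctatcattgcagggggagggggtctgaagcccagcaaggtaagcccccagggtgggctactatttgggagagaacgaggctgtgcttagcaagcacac
Hoxb8, plus strand, chr11:96281655-96281904: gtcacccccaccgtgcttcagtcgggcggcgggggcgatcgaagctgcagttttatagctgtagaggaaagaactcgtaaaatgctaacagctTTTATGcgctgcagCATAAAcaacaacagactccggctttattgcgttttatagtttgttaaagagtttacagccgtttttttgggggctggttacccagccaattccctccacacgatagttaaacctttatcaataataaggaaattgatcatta
RefSeq windows were matched for 22 of the 39 members, 24 windows in all. Of these, 6 held AGGTCA (Hoxd10, Hoxd8, Hoxd3, Hoxd4, Hoxb4 and Hoxc4), against 14.02% of all 32851 windows, and 5 held TTTATG (Hoxd11, Hoxd3, Hoxd4, Hoxa7 and Hoxb8), against 10.8%. The letters TGATTNAT of a Pbx-Hox pair stood in 2 member windows (Hoxd11 and Hoxa2) and in 2.82% of all. In the Hoxd3 window the first 2 motifs overlap. The windows of Hoxa5, Hoxa6 and Hoxa9, which were lower in Hand2-positive smooth muscle as well, held none of these motifs. The median GC content was 58.6% in the member windows and 52.4% in all.

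Fibroblasts were split by Hand2 in the same way, a comparison added after the smooth muscle values had been seen. Hand2 UMIs were present in 27.5%, 20.2% and 14.6% of fibroblasts of the APOE2, APOE3 and APOE4 libraries. None of the study's other arch genes passed here (Pde1c 0.80, Flrt3 0.42, Lbp 0.11, Gng2 -0.34, Prss12 -0.66), nor did Sema3a (-0.58) or Tnc (0.47). Whether Hand2 marks the arch in fibroblasts was thus not shown. Mesothelial markers summed to 66.9, 1.52 and 0 CPM in Hand2-positive and 2.66, 0.369 and 0.509 CPM in Hand2-negative fibroblasts, and their part was not tested. Groups 5 to 9 summed to 51.1, 80.2 and 71.4 CPM in Hand2-positive and 163, 243 and 184 CPM in Hand2-negative fibroblasts, 3.19, 3.03 and 2.58 times as much, without overlap. Of 18 members tested 0 were higher and 9 lower, where 0.828% and 0.804% of 12564 genes were called higher and lower by edgeR. At an unadjusted p under 0.05 edgeR gave 0 higher and 15 lower, a cutoff at which all genes were not counted. After adjustment DESeq2 gave 0 higher and 7 lower (0.573% and 0.549% of all genes) and limma-voom 0 and 9 (1.03% and 0.796%). The members that were lower were Hoxa7 (-1.87 ± 0.13), Hoxb8 (-1.84 ± 0.22), Hoxb6 (-1.80 ± 0.19), Hoxb5 (-1.76 ± 0.20), Hoxc6 (-1.61 ± 0.27), Hoxb7 (-1.50 ± 0.18), Hoxc8 (-1.41 ± 0.26), Hoxa5 (-1.06 ± 0.13) and Hoxb4 (-0.69 ± 0.15). All but Hoxb4 and Hoxc8 kept their call in each of 8 alternatives. Without the APOE3 library 7 were lower, where 0.348% of all genes were, these 2 having lost theirs. Hoxb4 also lost its call without the APOE4 library. Hand2-positive fibroblasts were deeper, at medians of 12351, 12788 and 10861 UMIs against 8430, 9555 and 8401, and these alternatives include neither thinning nor the removal of likely doublets.

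Of the 4 Hoxc genes tested in this split, Hoxc6 and Hoxc8 passed and Hoxc4 (-1.35 ± 0.40) and Hoxc9 (-1.42 ± 0.57) did not. Hoxc8 stood at 3.30, 6.60 and 10.6 CPM in Hand2-positive and 15.3, 17.4 and 15.1 CPM in Hand2-negative fibroblasts, both above every smooth muscle value. Hoxa7 stood at 10.5, 15.7 and 14.8 against 42.1, 60.9 and 47.9 CPM. None of these groups overlapped. Hoxd3 and Hoxd4 were too low in fibroblasts to be tested. Whether the split differs between smooth muscle and fibroblasts was not tested. In cells without a Hand2 UMI alone, fibroblasts and smooth muscle again differed in 9 members that were higher and 4 that were lower of 22 tested (28.9% and 31.5% of all genes). All 5 Hoxc genes were called there, Hoxb7 became lower in fibroblasts (-0.60, adjusted p = 0.00455 by edgeR's quasi-likelihood test), Hoxb8 did not pass (0.38, adjusted p = 0.0823) and Hoxd4 changed sign to 0.39 without passing (adjusted p = 0.476).

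Co-detection in single cells is given as a description only. Among the 7 members at 10 CPM or more in smooth muscle of every library (Hoxa3, Hoxa5, Hoxa7, Hoxb2, Hoxb3, Hoxb4 and Hoxb7; 21 pairs), cells thinned to 3000 UMIs that held both genes of a pair were counted against the number that independent shares of either gene would give. Pairs within groups 5 to 9 were found together 2.63, 1.91 and 1.59 times as often as that in the APOE2, APOE3 and APOE4 libraries, pairs within groups 1 to 4 were found 1.07, 1.24 and 0.940 times as often, and mixed pairs 1.24, 1.12 and 1.05 times. The highest pair was Hoxa7 with Hoxb7, in 66 cells against 18.3 in the APOE2 library, 67 against 24.7 in APOE3 and 60 against 34.6 in APOE4. Hoxa7 and Hand2 were found together in 14, 10 and 4 cells, against 88.4, 44.9 and 45.2. For Hoxa3 and Hand2 the counts were 103, 39 and 25 against 103, 44.8 and 31.0, near their independent shares. Cells of a library share its free RNA and its range of cell sizes, and are not replicates.

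Genes whose pattern was most like that of the Hox genes in smooth muscle were ranked by the log2 ratio between cells with at least 2 Hox UMIs (1070, 925 and 1100 cells) and cells without any (4151, 2669 and 2853) after thinning, by the weakest of the 3 libraries, over 7980 genes with at least 100 UMIs in each. Highest with Hox UMIs were Sema3a (1.52, 1.36 and 1.19 in APOE2, APOE3 and APOE4), Vegfd (1.28, 1.35 and 0.89), Rgs5 (1.63, 1.38 and 0.85), Slc22a2 (1.43, 0.81 and 0.89), Btc (1.23, 1.11 and 0.79) and Rgs17 (0.73, 0.66 and 1.02). Among the lowest were Hand2 (-1.38, -1.53 and -2.34), Lpl (-1.35, -1.16 and -1.50), Vcam1 (-1.86, -1.15 and -1.14), Igfbp2 (-1.03, -1.66 and -1.17) and 2210407C18Rik (-0.89, -1.09 and -1.29). All of these kept 1 sign in the 3 libraries, which the ranking favours.

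Genes that work with or on the Hox genes were also counted in the Hand2 split of smooth muscle, where 6.83% of all genes were higher and 4.63% lower. These lists were drawn up with results of these data known. Of the 9 TALE-class partners (Pbx, Meis and Pknox), which bind DNA together with Hox proteins, 1 passed, Meis2, which was higher in Hand2-positive cells by 0.25 ± 0.07, and the median over the 9 was 0.06. Of 18 Polycomb and Trithorax genes, which keep the clusters silent or active, 2 passed, both higher, Cbx8 (0.52 ± 0.11) and Kdm6b (0.37 ± 0.05). Of the 6 tested of 9 upstream regulators 1 was lower, Cyp26b1, which breaks down retinoic acid (-0.65 ± 0.08). Between fibroblasts and smooth muscle 26.8% of all genes were higher in fibroblasts and 31.8% lower, and the lists are read beside those shares. Among the TALE partners Meis1 (1.33 ± 0.11), Pknox2 (1.26 ± 0.11), Meis2 (1.03 ± 0.10) and Pknox1 (0.52 ± 0.13) were higher in fibroblasts and Pbx2 was lower (-0.83 ± 0.11). Of the chromatin genes 5 were higher, Cbx2 most (1.46 ± 0.34), and 5 lower, Cbx7 most (-0.80 ± 0.12). Of the upstream regulators Aldh1a2, which makes retinoic acid, was higher by 3.62 ± 0.31 and the receptors Rarg and Rara by 1.18 ± 0.09 and 1.13 ± 0.09. In fibroblasts split by Hand2, Meis2 again was higher (0.41 ± 0.09), and no chromatin gene or upstream regulator passed.

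The clusters also hold 17 noncoding genes, of which 8 were tested. Called shares over all genes are those given above, 6.83% higher and 4.63% lower in Hand2-positive smooth muscle, 0.828% and 0.804% in Hand2-positive fibroblasts, and 26.8% and 31.8% in fibroblasts against smooth muscle. In Hand2-positive smooth muscle Hoxb5os, which spans Hoxb5 and Hoxb6 on the other strand, was lower by -2.37 ± 0.08, close to the -2.49 of Hoxb5. Gm11536 (-0.72 ± 0.13), Hoxaas3 (-0.49 ± 0.10) and Hotairm1 (-0.20 ± 0.04) were lower as well, and Hoxb3os, which runs opposite to Hoxb2 and the end of Hoxb3, was higher by 0.95 ± 0.08 while both of those genes were lower. In fibroblasts Hoxb5os differed by -2.58 ± 0.39 between Hand2-positive and Hand2-negative cells, and it alone of 7 tested passed. Between fibroblasts and smooth muscle 2 noncoding genes were higher, Gm53 (1.72 ± 0.39) and Gm11536 (0.74 ± 0.19), and 5 lower, Hotairm1 most (-1.75 ± 0.13). Where counting did not use the strand, reads of a Hox gene and its antisense gene cannot be told apart.

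In smooth muscle the genotype ratios were farther from 0 in groups 5 to 9 than in groups 1 to 4. In smooth muscle all members summed to 201 CPM in APOE2 (95% Poisson interval 198 to 203), 238 CPM in APOE3 (235 to 241) and 257 CPM in APOE4 (254 to 260). The log2 ratio of the sum was -0.24 (-0.27 to -0.22) for APOE2 to APOE3, 0.11 (0.09 to 0.14) for APOE4 to APOE3 and 0.36 (0.33 to 0.38) for APOE4 to APOE2. These ratios share libraries and are not independent of each other. For groups 5 to 9 the ratios were -0.40, 0.36 and 0.76, and for groups 1 to 4 they were -0.13, -0.11 and 0.02. In fibroblasts, where APOE3 was highest, the sum of all members gave -0.59 (-0.66 to -0.52), -0.30 (-0.37 to -0.22) and 0.29 (0.22 to 0.36) in the same order. There the ratios were -0.72, -0.30 and 0.42 for groups 5 to 9 and -0.45, -0.30 and 0.16 for groups 1 to 4, so that APOE4 and APOE3 differed alike in both.

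Single members past 1.5-fold were counted among those with 100 UMIs or more in both libraries together. From APOE2 to APOE4 smooth muscle, 9 of 19 were higher (6.57% of all such genes), all of groups 5 to 9: Hoxb9 (log2 ratio 1.42), Hoxb6 (0.93), Hoxa5 (0.89), Hoxc6 (0.81), Hoxb5 (0.74), Hoxb7 (0.70), Hoxa6 (0.70), Hoxa7 (0.67) and Hoxb8 (0.66). Hoxd4 alone was lower, by -1.19 (8.47% of all genes). The median ratio was 0.30 over the 19 members and -0.10 over all genes. Against APOE3, APOE2 smooth muscle had 1 of 18 members higher, Hoxd4 with 0.88 (7.01% of all genes), and 3 lower, Hoxb6 (-0.85), Hoxb8 (-0.65) and Hoxb9 (-0.61), where 2.55% of all genes were lower. APOE4 had 2 of 19 higher, Hoxb9 (0.81) and Hoxa5 (0.75), and 0 lower (6.53% and 3.37% of all genes).

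In fibroblasts 7 of 15 members were lower in APOE2 than in APOE3 and 0 higher (5.77% and 5.96% of all genes). They were Hoxc6 (-1.39), Hoxb5 (-1.18), Hoxb8 (-0.9995), Hoxb6 (-0.97), Hoxa7 (-0.69), Hoxb7 (-0.61) and Hoxb3 (-0.60). In APOE4, 2 of 14 were lower than in APOE3, Hoxb8 (-0.76) and Hoxb5 (-0.62), and 0 higher (3.98% and 4.11%). From APOE2 to APOE4, 2 of 15 were higher, Hoxc6 (1.06) and Hoxb6 (0.64), and 0 lower (5.04% and 6.79%). Fibroblasts of the APOE2 library also held more smooth muscle marker UMIs (2770 CPM against 1398 and 1515) and fewer fibroblast marker UMIs (28446 CPM against 40711 and 36570) than those of the APOE3 and APOE4 libraries, and the part of this in the ratios was not tested.

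In smooth muscle the share of Hand2-positive cells went the opposite way to groups 5 to 9. In fibroblasts of APOE2, APOE3 and APOE4 the shares were 27.5%, 20.2% and 14.6%. Groups 5 to 9 summed to 121, 199 and 162 CPM there, so both fell from APOE3 to APOE4. A Hand2 UMI was present in 45.0% of APOE2 smooth muscle cells (exact 95% interval 43.9 to 46.1), 32.2% of APOE3 cells (30.9 to 33.5) and 20.6% of APOE4 cells (19.6 to 21.7), and after thinning to 3000 UMIs in 17.2%, 9.34% and 6.81%. Within Hand2-negative smooth muscle the log2 ratio of the sum over all members was -0.055 for APOE2 to APOE3, 0.000994 for APOE4 to APOE3 and 0.056 for APOE4 to APOE2, and within Hand2-positive cells -0.044, 0.013 and 0.057. For the sum over all members the ratios were nearer to 0 within either kind of cell than in all smooth muscle, but in Hand2-negative cells the 2 ranges of groups went opposite ways. There APOE4 to APOE3 was -0.20 (-0.24 to -0.16) for paralog groups 1 to 4 and 0.18 (0.14 to 0.21) for paralog groups 5 to 9, and APOE4 to APOE2 was -0.12 for groups 1 to 4, both farther from 0 in groups 1 to 4 than the -0.11 and 0.02 of all smooth muscle. For groups 5 to 9 the APOE4 to APOE2 ratio was 0.21 (0.17 to 0.25) within Hand2-negative and 0.32 (0.21 to 0.43) within Hand2-positive cells, against 0.76 in all. Hand2-negative cells can include cells in which Hand2 was missed, to an extent not known for each library. The amount of arch in each pool, the recovery of its cells and the genotype cannot be told apart with 1 library of each genotype.

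Hoxa5 departed from this. In Hand2-positive cells it stood at 12.0 CPM in APOE2 and 18.6 CPM in APOE4, where groups 5 to 9, Hoxa5 included, summed to 32.3 and 40.4 CPM. In Hand2-negative cells it stood at 22.2 and 34.1 CPM, where these groups summed to 144 and 167 CPM. The APOE4 to APOE2 ratio of Hoxa5 was 0.89 in all smooth muscle, 0.62 (0.52 to 0.72) in Hand2-negative cells and 0.64 (0.47 to 0.80) in Hand2-positive cells, and its APOE4 to APOE3 ratios were 0.75, 0.65 and 0.64. Hoxa7, by contrast, gave 0.67 in all cells and 0.08 (0.01 to 0.15) and -0.09 (-0.32 to 0.13) within the 2 kinds. Hoxb6 was lower in APOE2 than in APOE3 within both kinds, by -0.39 (-0.52 to -0.26) and -0.89 (-1.20 to -0.59). In fibroblasts the Hoxa5 ratio of APOE4 to APOE3 was -0.08 (-0.33 to 0.17).

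**Figure D4:**
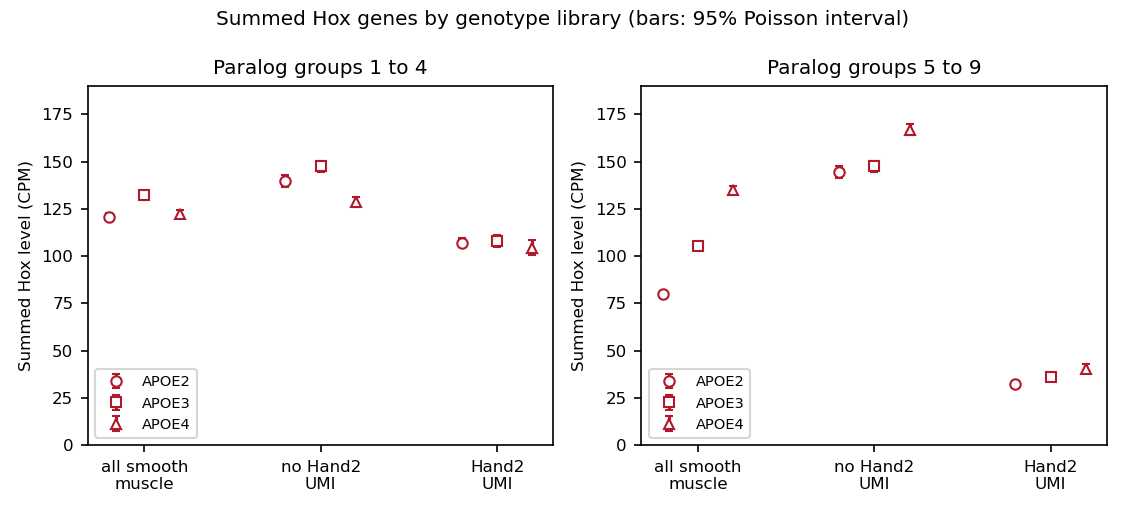
Summed level of Hox genes of paralog groups 1 to 4 (left) and 5 to 9 (right) in CPM (vertical axis), in all smooth muscle cells and in those without and with a Hand2 UMI, by genotype library (symbols; bars are 95% Poisson intervals). Groups 5 to 9 go from 79.8 to 135 CPM between APOE2 and APOE4 in all cells and from 32.3 to 40.4 CPM within Hand2-positive cells.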

How the data were processed

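Gene-by-cell UMI counts were deposited by the authors as filtered matrices, 1 for each genotype, made with Cell Ranger 7.0.1 (per the file headers) on mm10. The end of the transcript read and the use of strand and of introns in counting are not given in the sources used here. Cells with at least 200 genes and under 20% mitochondrial UMIs were kept (124926887 to 168310501 UMIs in a library) and put into classes by the shares of Acta2 and Tagln (2%) and Dcn (0.5%). Cells past both thresholds joined neither class, and of the rest those with 1 leukocyte or 2 endothelial marker UMIs formed those classes. Doublets were kept, and cells likely to be doublets were left out in an alternative. UMIs were summed by library and class and tested with edgeR 4.0.16 (R 4.3.3, TMM, filterByExpr, quasi-likelihood test, library as block, Benjamini-Hochberg adjustment over all genes). A run on simulated counts changed few genes, balanced in direction. It cannot speak to contrasts in which many genes differ. The SE is the log2 difference divided by the root of F. DESeq2 1.42.0 and limma 3.58.1 were alternatives. Genotypes have 1 library each and received no test, but exact Poisson, binomial and Clopper-Pearson 95% intervals (scipy 1.17.1). Samples are pools of mice, 1 for each genotype. With the library as a block, p-values rest on the 3 pools and not on single mice. They use a dispersion that is estimated in part over all genes. Neither they nor the SE is therefore the plain spread of a gene's difference over the pools. Members given in full were those with 20 CPM in either class in all libraries and the highest of each paralog group. The members and gene lists were chosen with earlier results of these data known, and the fibroblast Hand2 split, the strata by Hand2 and the scaling by total UMIs were added after the values were seen. Some genes and sequences are not reported here, though counts over all members include them.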

Additional observations from a re-analysis of the deposited data

Results flagged for a closer look

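The summed Hox level went in opposite directions in the 2 cell classes between APOE4 and APOE3, with a log2 ratio of 0.11 in smooth muscle and -0.30 in fibroblasts. With 1 library for each genotype the difference between the classes was not tested. The cells that fell into no class, which no comparison used, held 188.6, 203.1 and 179.6 CPM of Hox transcripts in the APOE2, APOE3 and APOE4 libraries, above the leukocyte levels of 25.1, 26.4 and 16.9 CPM. They made up 13.3%, 6.43% and 7.90% of the cells of these libraries. They held 15764 to 18187 CPM of smooth muscle markers and 8157 to 29112 CPM of erythroid markers. The effect of leaving them out on the genotype ratios was not tested.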

How the results depend on the processing

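The library was a block in every test, since each library gave both kinds of cells. No paired analysis was possible because each genotype has 1 library, beyond this block. When a library was left out, the number of members higher in fibroblasts lay between 5 and 10 of 24, and the number lower between 2 and 3. Of all genes 19.2% to 26% were then higher and 22.3% to 32.1% lower. Among single members, Hoxd4 reversed, from -0.98 to 0.39, in cells without a Hand2 UMI alone. In the Hand2 split of smooth muscle 0 members were higher with Hand2 called after thinning (2.19% of all genes). With class thresholds of 4% and 1% it was 1 (7.71%), and with a library left out between 1 and 2 (4.95% to 7.87%). The cause was not tested. Over all genes, scaling by total UMIs gave 6922 higher and 3231 lower in fibroblasts in place of 4510 and 5357. In the Hand2 split of smooth muscle 1085 genes were higher and 736 lower, against 346 and 299 with Hand2 after thinning, 420 lower by DESeq2 and 1274 lower without the filter. In the fibroblast split 104 and 101 genes became 288 and 222 without the APOE2 library, 43 and 46 without APOE3 and 271 and 235 without the filter.

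The log2 ratio of the sum over all members for APOE2 to APOE3 in smooth muscle (-0.24) was -0.055 in Hand2-negative and -0.044 in Hand2-positive cells, -0.29 with thresholds of 4% and 1%, -0.20 as a mean over cells, -0.29 with TMM factors and -0.20 without likely doublets. For APOE4 to APOE3 (0.11) it was 0.000994 and 0.013 in Hand2-negative and Hand2-positive cells and 0.16 with TMM factors. For APOE4 to APOE2 (0.36) it was 0.056 and 0.057 in these, 0.41 with the higher thresholds, 0.30 as a mean over cells, 0.46 with TMM factors and 0.33 without likely doublets. In fibroblasts APOE2 to APOE3 (-0.59) gave -0.47 in Hand2-negative cells, -0.50 with the higher thresholds, -0.49 as a mean over cells and -0.41 without likely doublets, and APOE4 to APOE2 (0.29) gave 0.11, 0.15 and 0.15 in Hand2-negative cells, as a mean over cells and without likely doublets.

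The share of cells with a Hox UMI followed depth. In smooth muscle of APOE2, APOE3 and APOE4 it was 18.6%, 20.9% and 22.9% at 1000 UMIs, 72.0%, 77.6% and 80.3% at 8000, 79.2%, 89.9% and 89.4% without thinning, and 14.9%, 18.1% and 19.0% for at least 2 Hox UMIs at 3000. In fibroblasts it was 22.9%, 32.4% and 25.7% at 1000, 65.4%, 81.5% and 76.1% at 8000, 71.6%, 79.5% and 77.9% without thinning, and 20.2%, 31.1% and 23.5% for at least 2. In leukocytes it was 2.05% in APOE2 and 1.34% in APOE4 at 1000, 12.5% and 7.78% at 8000, 11.6%, 10.8% and 7.16% without thinning, and 0.429%, 0% and 0.318% for at least 2. Members of groups 10 to 13 were near the limit that a count of 0 allows, so differences among them were not detectable at this depth.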
